A study of Sus scrofa with 24 samples.

Results

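The time course described here follows pig bronchial epithelial cells in which the p38 MAP kinases were inhibited with SB203580 before flagellin was added. It comprises the 8 libraries labelled SB203580 plus flagellin, 4 taken at 24 h and 4 taken at 2 h, out of 24 libraries in all, and it was read over pig genes only. The libraries were chosen by their labels, and the 24 h library was matched to the 2 h library of the same replicate number.

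Epithelial cells had been isolated from bronchi of wild type pigs aged 1 month, seeded on collagen-treated porous membranes and differentiated at an air-liquid interface, a culture in which the apical side of the cells faces air. In the 8 libraries, cells were held in 20 µM SB203580 for 1 h before flagellin was added at 100 ng/ml, and were harvested 2 h or 24 h later. In 8 further libraries, 1 h in the vehicle DMSO preceded flagellin at the same dose and times, and in the last 8 DMSO preceded PBS. Each of the 6 groups held 4 libraries. Cells treated with SB203580 without flagellin were not analysed here, so the change over time cannot be split into a part due to flagellin and a part due to the inhibitor. The labels do not say whether replicates came from separate animals or from separate membranes of 1 culture. The Y-linked gene EIF1AY, given below, was read in replicates 1 and 2 and not in 3 and 4, so more than 1 animal was used, while the spread within each pair of replicates may be technical.

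Flagellin is the protein subunit of the bacterial flagellum. It is recognised at the cell surface by Toll-like receptor 5 (TLR5), which signals through MYD88 and the kinase TAK1 to the transcription factor NF-kB and to the MAP kinases, p38 among them. NF-kB and the MAP kinases switch on an early wave of chemokines, cytokines and inhibitors of the pathway itself, and p38, acting through the kinase MK2 (MAPKAPK2), is known to stabilise short-lived messenger RNAs with AU-rich elements, many of which encode cytokines. SB203580 blocks the catalytic site of p38 alpha and p38 beta.

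The 8 libraries held 30757560 to 35483693 counts on pig genes each, with a median of 33897122, against 26345945 to 36267289 over all 24 libraries. Between 15878 and 16464 pig genes had a count in each of the 8. Mitochondrially encoded genes took 3.57 to 5.59% of their counts. Replicates 1 and 2 stood apart from replicates 3 and 4 at both times. EIF1AY, a Y-linked gene, was read at 16.2 to 25.0 CPM (the count normalised to the size of its library) in replicates 1 and 2 and had no count in replicates 3 and 4. SCGB1A1, the secretoglobin of club cells, was read at 0.683 to 14.8 CPM in replicates 1 and 2 and at 0.0299 to 0.116 CPM in replicates 3 and 4, where it is at or near the 0.0845 to 0.0975 CPM that 3 counts amount to. Epithelial markers were read in all 8 libraries: the basal cell markers TP63 (36.5 to 95.3 CPM) and ITGA6 (425 to 830 CPM), the mucin MUC5B (34.3 to 173 CPM) and FOXJ1, the regulator of ciliated cells (3.47 to 9.39 CPM). The leukocyte antigen PTPRC reached at most 0.0324 CPM, the endothelial cadherin CDH5 at most 0.0599 CPM, and CD3E and MS4A1, which mark T and B cells, had no count in any of the 8. Other non-epithelial markers were read: CD14 of monocytes at 10.7 to 108 CPM, the fibroblast genes DCN at 7.39 to 23.7 CPM and COL1A1 at 0.721 to 12.3 CPM, and PECAM1 of endothelium at 2.20 to 6.35 CPM. Which cells these reads came from was not tested.

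Within the secretory cell list, the mean log2 CPM over 11 markers was 6.79, 8.05, 5.7 and 5.77 at 2 h in replicates 1 to 4 and 6.66, 7.19, 5.90 and 5.29 at 24 h. Over the 23 ciliated cell markers it was 1.07, 1.79, 0.90 and 1.00 at 2 h and 0.91, 0.44, 1.21 and 1.26 at 24 h. Within replicates 1 and 2, the libraries of replicate 1 at both times and of replicate 2 at 24 h were thus low in these markers against replicate 2 at 2 h. In secretory markers these 3 were still above all 4 libraries of replicates 3 and 4, and in ciliated markers replicate 1 lay within their range at both times. The count of changed genes is given below with and without these 3, called the 3 libraries set aside. For called genes named by rule, calls that were lost without them are also given.

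Between 2 h and 24 h, 2422 of 14172 genes tested changed, which is 17.1% of them. Of these, 1229 rose (8.67% of the genes tested) and 1193 fell (8.42%). The test was edgeR's quasi-likelihood test with the replicate number as a block, and a gene was called changed at a Benjamini-Hochberg adjusted p under 0.05. A change of at least 2-fold was seen in 432 of the called genes, 222 higher and 210 lower at 24 h. In 1660 of the tested genes (11.7%) the 4 values at 24 h did not overlap the 4 values at 2 h. Without the replicate block the test called 975 genes, and without the 3 libraries set aside it called 1551, of which 1234 were among the 2422. With only the 8 libraries in the fit it called 577, of which 547 were among the 2422. Replicates 1 and 2 on their own gave 1242 genes, and replicates 3 and 4 on their own gave 3767.

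The genes were then read through 36 lists of pathway genes and cell type markers, in which 684 entries were tested. Members of the NF-kB feedback, chemokine, cytokine and immediate early lists fell, with 26 lower and 1 higher at 24 h over the 4 lists. With PBS 1, 1, 2 and 8 members of these lists fell, in that order, and 2, 1, 0 and 0 rose. With flagellin alone 12, 6, 9 and 8 fell and none rose. Glycolysis and hypoxia target genes rose, with 27 of 33 past the threshold and none lower. Cholesterol and fatty acid synthesis genes fell (13 of 31, none higher), as did ribosome biogenesis genes (10 of 26), endoplasmic reticulum chaperones (8 of 21) and ion and water transport genes (7 of 19). Over all genes tested 8.67% rose and 8.42% fell, and the median log2 change was 0.00. No member of the list of 22 YAP and TGF-beta target genes passed the threshold.

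**Figure D1:**
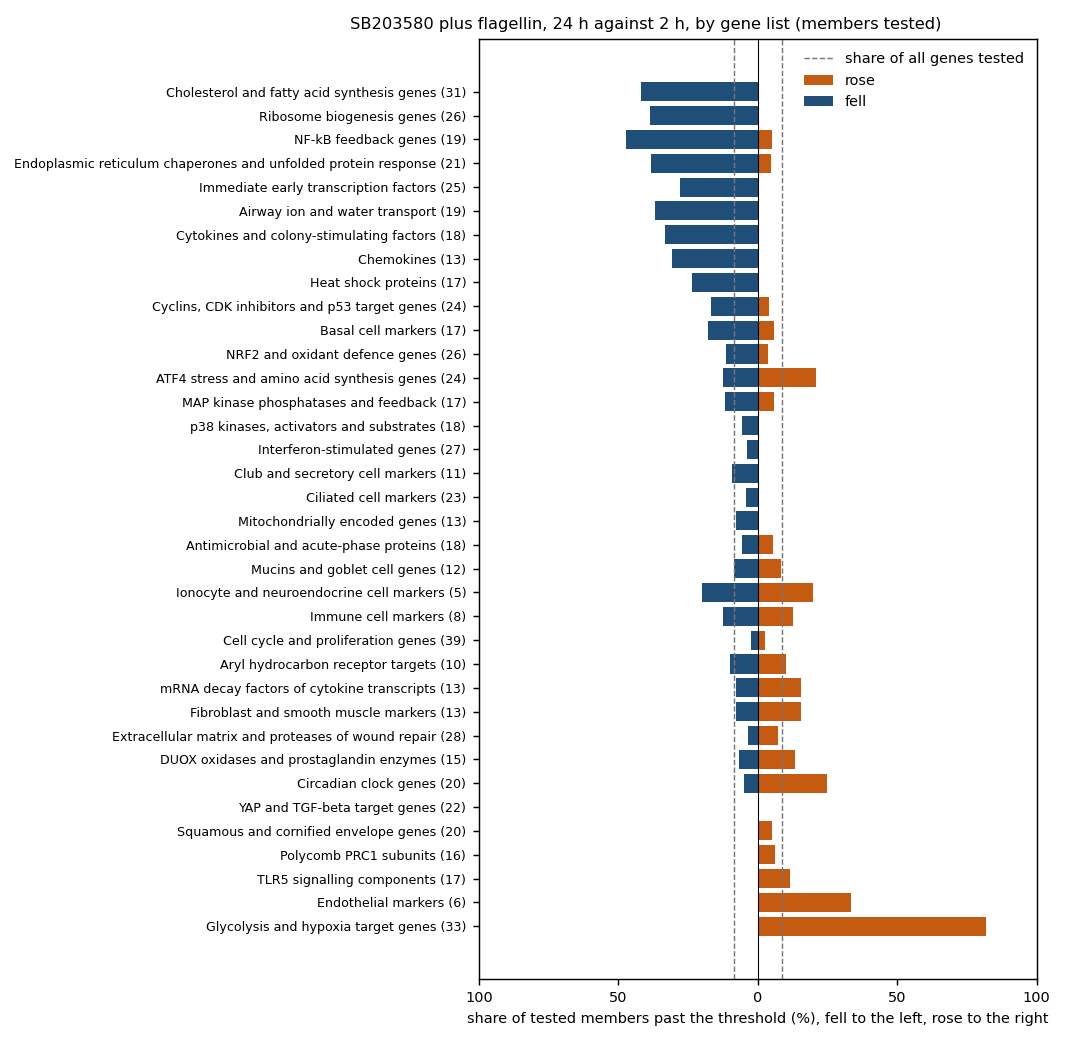
Share of the tested members of each gene list that fell (blue, to the left) or rose (orange, to the right) between 2 h and 24 h with SB203580 plus flagellin, in percent, with the number of members tested in brackets and the shares of all genes tested as dashed lines. Glycolysis and hypoxia target genes reach furthest to the right, with 27 of 33, and NF-kB feedback genes furthest to the left, with 9 of 19.

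A part of the chemokine and cytokine transcripts fell between 2 h and 24 h with SB203580 plus flagellin. Of 13 chemokines tested, 4 fell and none rose, with a list median of -0.68 on the log2 scale. CXCL8 (ENSSSCG00000008953, chromosome 8, 69932644 to 69935861), which attracts neutrophils, was read at 326, 395, 454 and 567 CPM at 2 h and at 64.6, 83.0, 14.4 and 21.5 CPM at 24 h in replicates 1 to 4. Every 2 h library lay above every 24 h library, and the fall was larger in replicates 3 and 4 than in replicates 1 and 2. The log2 change was -3.75 (SE 0.58, adjusted p 0.00033).

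CXCL2, a second neutrophil attractant, went from 286, 314, 154 and 192 CPM to 79.5, 40.1, 13.1 and 14.9 CPM (log2 change -3.15, SE 0.449, adjusted p 0.000173). CCL20, which draws dendritic cells and lymphocytes that carry CCR6, went from 140, 118, 75.9 and 114 CPM to 48.2, 24.3, 1.05 and 2.70 CPM (log2 change -3.82, SE 0.769, adjusted p 0.00257). At 24 h CCL20 was many times higher in replicates 1 and 2 than in replicates 3 and 4. CCL2, the monocyte attractant, was read at 54.0, 57.1, 9.07 and 15.0 CPM at 2 h and at 14.4, 11.9, 2.45 and 4.13 CPM at 24 h (log2 change -2.0, adjusted p 0.00268). Its values overlapped between the times across replicate numbers but fell within each number. Without the replicate block the adjusted p was 0.00779 for CXCL8, 0.0758 for CXCL2, 0.204 for CCL20 and 0.177 for CCL2, so 3 of the 4 calls depend on the block. The block takes up the split of replicates 1 and 2 from 3 and 4 as well as the single numbers. Which of these the calls depend on was not tested. CXCL2 lies in a cluster of similar chemokine genes whose reads may be shared between copies.

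Among 18 cytokines and colony-stimulating factors tested, 6 fell and none rose, and the list median was -0.69. CSF1, the growth factor of macrophages, fell from 52.3, 54.8, 128 and 154 CPM to 17.9, 19.2, 31.8 and 36 CPM (log2 change -1.81, SE 0.222, adjusted p 4.42e-05). IL1A, an alarm cytokine of epithelium, fell from 149, 152, 173 and 164 CPM to 100, 65.1, 48.9 and 53.6 CPM (log2 change -1.28, SE 0.246, adjusted p 0.0018). LIF, of the interleukin-6 family, went from 73.7, 77.9, 16.6 and 28.1 CPM to 32.3, 8.33, 2.5 and 3.04 CPM (log2 change -2.5, SE 0.353, adjusted p 0.000148). For CSF1 and IL1A all 2 h libraries exceeded all 24 h libraries, while for LIF the 24 h library of replicate 1 lay above both 2 h libraries of replicates 3 and 4.

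TNF, the prototype inflammatory cytokine, was read at 29.9 and 35.1 CPM at 2 h in replicates 1 and 2 but at 0.365 and 1.59 CPM in replicates 3 and 4. At 24 h it was at 6.17, 2.00, 0.135 and 0.223 CPM, and the log2 change was -2.95 (SE 0.662, adjusted p 0.00519). Its call was lost without the 3 libraries set aside (adjusted p 0.0973). IL20, of the interleukin-10 family, fell by 3.02 on the log2 scale (adjusted p 0.000933) from 0.281 to 4.37 CPM at 2 h. Without the replicate block the adjusted p was 0.137 for LIF, 0.307 for TNF and 0.0532 for IL20, and it stayed under the threshold for CSF1 (0.00901) and IL1A (0.00385). IL6 and CSF3 were below 1.2 CPM in every library, and neither passed the threshold (log2 changes -0.79 and -0.83, adjusted p 0.335 and 0.404).

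The NF-kB feedback list, which holds inhibitors of the pathway and also subunits of NF-kB and other pathway genes, had the largest share of falling members. Of 19 tested, 9 fell and 1 rose, and the list median was -0.40. TNFAIP3 (ENSSSCG00000004154, chromosome 1, 26473935 to 26489776) encodes A20, an enzyme that edits ubiquitin chains and shuts off the signal to NF-kB. It was read at 764, 881, 505 and 527 CPM at 2 h and at 197, 160, 64.9 and 87.6 CPM at 24 h, without overlap (log2 change -2.47, SE 0.191, adjusted p 4.66e-07). BIRC3, a ubiquitin ligase of the same pathway, fell from 394, 368, 319 and 336 CPM to 214, 176, 130 and 114 CPM (log2 change -1.19, SE 0.116, adjusted p 3.56e-06).

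NFKBIA encodes the inhibitor IkB alpha, which holds NF-kB in the cytoplasm. It was read at 1162 and 1005 CPM at 2 h in replicates 1 and 2 and at 177 and 244 CPM in replicates 3 and 4. At 24 h the values were 318, 222, 131 and 156 CPM, and the log2 change was -1.36 (SE 0.254, adjusted p 0.00142). The fall of NFKBIA was larger in replicates 1 and 2, and its call was lost without the replicate block (adjusted p 0.0811) and without the 3 libraries set aside (0.0665). Outside the list, TNFAIP2, another NF-kB target, fell by 2.16 on the log2 scale (adjusted p 0.00041). MAP3K8, the kinase that links the pathway to ERK and also not in the list, fell by 2.17 (adjusted p 6.87e-06, and 0.0529 without the block). The 1 member of the list that rose was CYLD, a deubiquitinase of the pathway, by 0.27 (adjusted p 0.0213). CYLD was named after its values had been seen.

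Among other early genes, IRF1, a transcription factor of interferon and NF-kB responses, fell from 126, 144, 87.9 and 105 CPM to 49.7, 40.3, 25.7 and 29.2 CPM (log2 change -1.71, SE 0.144, adjusted p 8.77e-07). It was the only one of 27 interferon-stimulated genes past the threshold, against 17.1% called over all genes. CD83, a surface protein of activated cells, fell from 15.2, 17.2, 18.1 and 21.5 CPM to 6.46, 6.98, 3.58 and 3.43 CPM (log2 change -1.88, SE 0.247, adjusted p 7.27e-05). RND1, which loosens the actin cytoskeleton, fell from 136, 115, 36.3 and 51.3 CPM to 24.1, 14.5, 2.99 and 3.04 CPM (log2 change -3.26, SE 0.308, adjusted p 2.92e-06). In all 3 genes no 24 h value reached a 2 h value. CXCL8, TNFAIP3, IRF1, CD83, RND1, CSF1, IL1A and BIRC3 were past the threshold under all 19 alternatives of the processing that were run.

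**Figure D2:**
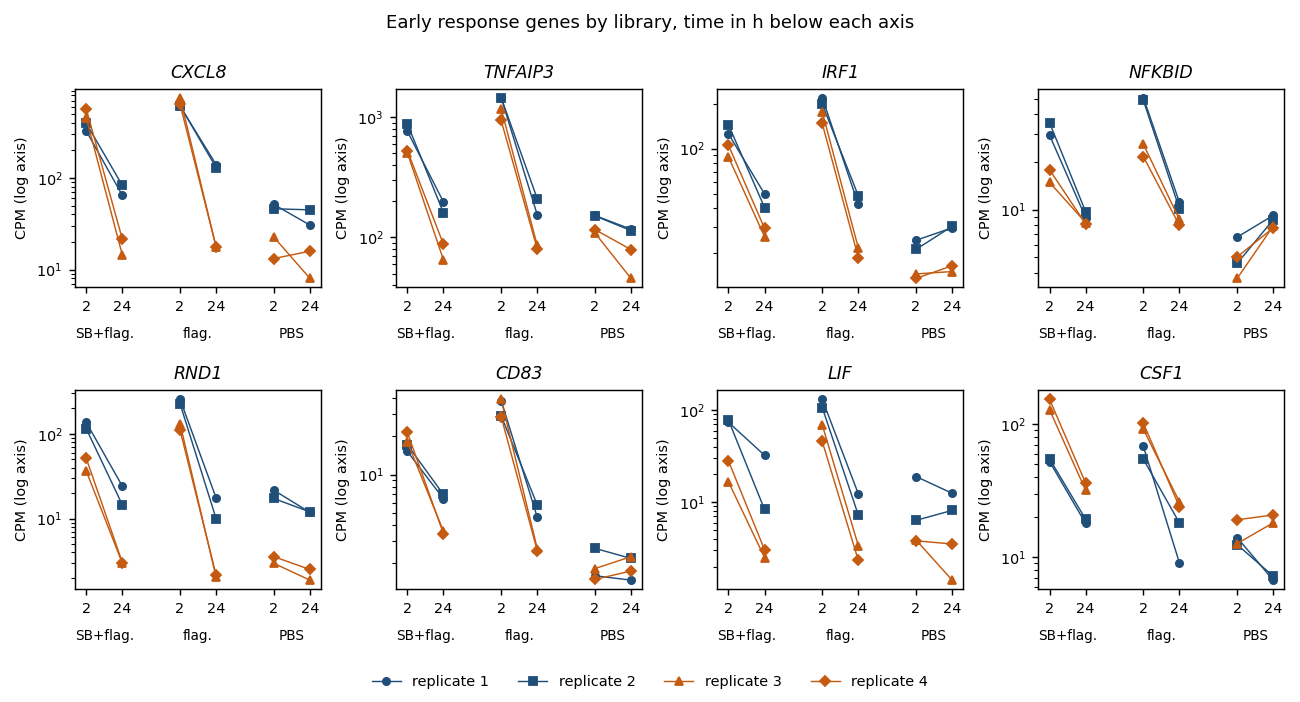
CPM on a log axis of 8 early response genes in every library at 2 h and 24 h with SB203580 plus flagellin, flagellin alone and PBS; lines join libraries of the same replicate number, with replicates 1 and 2 in blue and 3 and 4 in orange. With SB203580 plus flagellin the 8 genes go down in all 4 replicates, as TNFAIP3 does from 505 to 881 CPM at 2 h to 64.9 to 197 CPM at 24 h.

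Immediate early transcription factors, which are switched on without new protein synthesis, fell in 7 of 25 cases and rose in none (list median -0.40). In the PBS course 8 of the 25 fell and none rose (list median -0.34), so the fall was also present without flagellin. FOSB was read at 21.7, 20.1, 22.6 and 12.8 CPM at 2 h and at 3.34, 4.65, 0.835 and 0.474 CPM at 24 h (log2 change -3.42, SE 0.565, adjusted p 0.000553). NR4A1, a nuclear receptor induced by many stimuli, fell by 2.33 (SE 0.345, adjusted p 0.000224), and ATF3, a stress-induced repressor, by 1.26 (SE 0.157, adjusted p 5e-05). These 3 genes changed by a like amount without flagellin: in the PBS course the log2 changes were -3.27 for FOSB, -2.02 for NR4A1 and -1.29 for ATF3. FOS reached an adjusted p of 0.0465 with a log2 change of -0.99, and the call was lost without the replicate block (0.284) and when replicate 3 or 4 at 2 h or replicate 2, 3 or 4 at 24 h was left out (up to 0.159). The FOS call was also lost without the 3 libraries set aside (0.0663). JUNB, EGR1 and MYC had log2 changes of 0.15, -0.44 and -0.03, with adjusted p of 0.625, 0.269 and 0.954.

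DUSP1, the phosphatase that switches off p38 and JNK, was read at 169, 141, 166 and 173 CPM at 2 h and at 141, 130, 118 and 120 CPM at 24 h. The log2 change was -0.36 (SE 0.15) and did not pass (adjusted p 0.107). In the same list of 17 MAP kinase phosphatases and feedback genes, 1 rose and 2 fell, against 17.1% called over all genes. DUSP8 and DUSP10, which act on JNK and p38, fell by 0.78 and 0.74 (adjusted p 0.00247 and 0.00264, and 0.195 and 0.0521 without the block). SPRY1, which restrains receptor tyrosine kinase signals, rose by 0.75 (adjusted p 0.0131). Without the 3 libraries set aside its adjusted p was 0.265, and leaving out replicate 1 or 2 at 2 h alone also lost the call (up to 0.0533).

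ZFP36 encodes tristetraprolin, the protein that marks AU-rich messenger RNAs for decay and is itself a substrate of MK2. Its level was 362, 224, 121 and 112 CPM at 2 h and 251, 173, 97.4 and 109 CPM at 24 h with SB203580 plus flagellin, and the log2 change of -0.32 (SE 0.186) did not pass (adjusted p 0.249). With flagellin alone ZFP36 fell by 1.13 (adjusted p 0.000476). The difference between these changes was 0.80 (SE 0.263), with an unadjusted p of 0.0067 and an adjusted p of 1. Of 13 decay factors of cytokine transcripts, 2 rose and 1 fell, against 17.1% called over all genes. ZC3H12A, the endonuclease regnase-1, fell by 1.18 (adjusted p 0.00039, and 0.185 without the block). PARN, a deadenylase, and AUH, an RNA-binding enzyme, rose by 0.74 and 0.64 (adjusted p 0.00031 and 0.00364). PARN kept its call under all 19 alternatives. The AUH call was lost with only the 8 libraries in the fit (0.0659) and in replicates 1 and 2 alone (0.0961).

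Of 18 p38 kinases, activators and substrates, 1 passed the threshold, against 17.1% called over all genes. This was CREB1, a transcription factor downstream of MK2 and MSK kinases (log2 change -0.51, adjusted p 0.0111). The CREB1 call was lost with only the 8 libraries in the fit (0.0537) and in replicates 1 and 2 alone (0.146). MAPK14, which encodes p38 alpha, was read at 74.8 to 138 CPM at 2 h and at 93.4 to 120 CPM at 24 h (log2 change 0.00, SE 0.0833, adjusted p 0.994). MAPKAPK2 had a log2 change of -0.16 (SE 0.0947, adjusted p 0.282). Transcript levels carry no information on kinase activity, and no gene here measures how far p38 was inhibited at either time.

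TLR5, the flagellin receptor, was low, at 0.721, 0.790, 0.983 and 1.04 CPM at 2 h and 0.969, 1.36, 2.24 and 2.82 CPM at 24 h. It rose by 0.99 on the log2 scale (SE 0.264, adjusted p 0.0144). The call was lost without the replicate block (adjusted p 0.107) and without replicate 3 at 2 h or replicate 4 at 24 h (up to 0.0604). In the PBS course TLR5 rose by 1.29 (adjusted p 0.00242). Of the 17 TLR5 signalling components, TAB3, an adaptor of TAK1, was the other member past the threshold, with a log2 change of 0.23 (adjusted p 0.0362, and 0.23 without the block). The TAB3 call was also lost without the 3 libraries set aside (adjusted p 0.308). Over all genes 17.1% were called.

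Set against the PBS course, in which 3183 genes (22.5%) changed between 2 h and 24 h, the change over time differed in 8 genes, or 0.0564% of all tested. In edgeR's quasi-likelihood test an unadjusted p under 0.05 was found for 680, fewer than the share of 0.05 expected if no gene differed. This count also moved with the fit. It was 248 without the replicate block and 1219 with a further term for the replicate set at 24 h. In replicates 1 and 2 alone it was 793 of 14183 genes, and in replicates 3 and 4 alone 887 of 13939. All 8 fell more, or rose less, with SB203580 plus flagellin, and 4 of them belong to the NF-kB feedback list and 1, IRF1, to the interferon list. Among those of the 8 with a symbol, the largest difference was that of RND1, at -2.63 (SE 0.421, adjusted p 0.0211). NFKBID, a nuclear inhibitor protein of the IkB family, differed by -2.16 (SE 0.269, adjusted p 0.0012), IRF1 by -1.99 (SE 0.202, adjusted p 0.000109) and TNFAIP3 by -1.83 (SE 0.258, adjusted p 0.00515). NFKBIE, which encodes IkB epsilon, and BIRC3 differed by -1.18 and -0.93 (adjusted p 0.0326 and 0.037).

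For NFKBID the values with SB203580 plus flagellin went from 29.4, 35.2, 14.8 and 17.8 CPM to 8.90, 9.69, 8.27 and 8.11 CPM. With PBS they went up from 6.69, 4.57, 3.68 and 5.03 CPM to 9.18, 8.63, 7.86 and 7.65 CPM. The 24 h levels of the 2 courses thus lay close together, and the 2 h levels did not overlap. NFKBIE showed the same arrangement: with SB203580 plus flagellin it fell from 75.2, 75.6, 99.4 and 104 CPM to 63.3, 51.8, 47.5 and 56.1 CPM, and with PBS it rose from 31.5, 37.3, 27.4 and 35.9 CPM to 47.1, 50.7, 40.6 and 46.6 CPM. IRF1 in the PBS course was at 24.3, 21.1, 14.5 and 13.5 CPM at 2 h and at 29.4, 30.2, 15.0 and 16.4 CPM at 24 h. Within each replicate number IRF1 at 24 h was still higher with SB203580 plus flagellin than with PBS. The 24 h against 24 h comparison of these 2 treatments was not tested.

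TXNIP, which binds thioredoxin and curbs glucose uptake, differed in another way. Its level with SB203580 plus flagellin was 1373, 1295, 1034 and 948 CPM at 2 h and 1223, 1549, 1033 and 827 CPM at 24 h (log2 change -0.03, adjusted p 0.878). With PBS it rose from 637, 754, 516 and 411 CPM to 1078, 1095, 942 and 708 CPM (log2 change 0.74, adjusted p 7.76e-05). The difference was -0.77 (SE 0.14, adjusted p 0.0483), and leaving out any 1 of the 8 PBS libraries, or any 1 of 7 of the 8 with SB203580, lost the call. The eighth gene, ENSSSCG00000008954, has no symbol in the tables used and its identifier follows that of CXCL8. It fell by 2.78 with SB203580 plus flagellin, had a log2 change of 0.38 with PBS, and differed by -3.16 (adjusted p 0.0483).

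The number of genes that differed from the PBS course was sensitive to single libraries. It was between 3 and 14 when 1 library was left out, 0 without the replicate block and 3 (IRF1, TNFAIP3 and NFKBIE) without the 3 libraries set aside and replicate 2 with PBS at 2 h, and it dropped to 5 or fewer in 10 of the 16 omissions: each of replicates 2, 3 and 4 with PBS at 2 h, 1 and 2 with PBS at 24 h, 3 and 4 with SB203580 at 2 h and 2, 3 and 4 with SB203580 at 24 h. It rose to 14 without replicate 1 with SB203580 at 24 h. IRF1, TNFAIP3 and NFKBID kept their calls in all 16 omissions of 1 library (NFKBID had an adjusted p of 0.0716 without the libraries set aside), whereas RND1, NFKBIE and BIRC3 lost theirs in some. CXCL8, with a difference of -3.26 (SE 0.758), and CXCL2, with -3.19 (SE 0.607), did not pass the threshold (adjusted p 0.259 and 0.0724), and both had wider spreads between replicates.

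**Figure D3:**
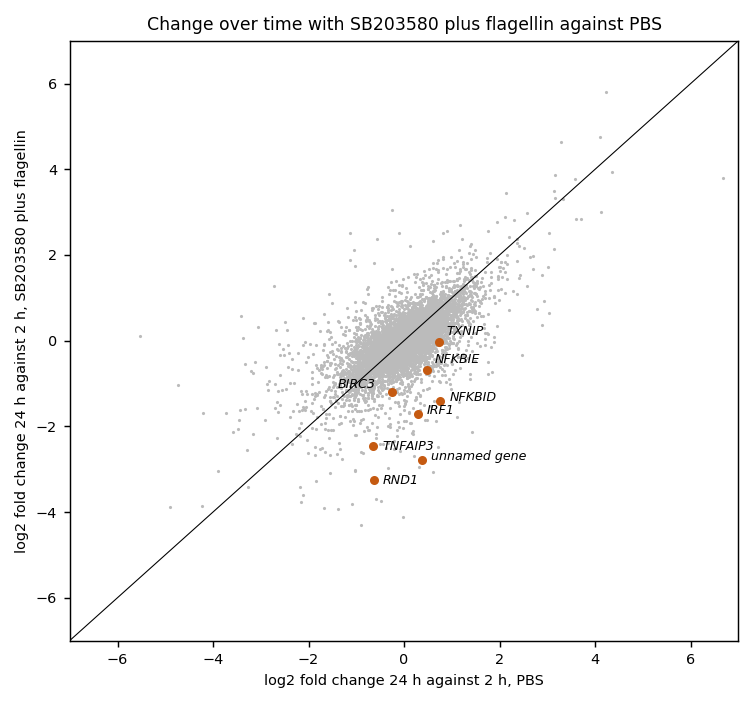
Log2 fold change between 2 h and 24 h with PBS (horizontal axis) and with SB203580 plus flagellin (vertical axis) for the 14172 genes tested (grey), with the line of equal change and the 8 genes whose change differed in orange. All 8 lie below the line, and TXNIP is set apart at a change of -0.03 against 0.74.

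Set against the course with flagellin and no inhibitor, in which 2664 genes (18.8%) changed, the change over time differed in none of the 14172 genes (0% past the threshold in edgeR's quasi-likelihood test, with 366 genes at an unadjusted p under 0.05). These 366 are fewer than the share of 0.05 that would be expected if no gene differed. This count moved with the fit. It was 113 without the replicate block and 706 with a further term for the replicate set at 24 h. In replicates 1 and 2 alone it was 503 of 14183 genes, and in replicates 3 and 4 alone 1248 of 13939. The low count in the main fit thus does not show that the courses were alike. The unadjusted p given below belong to genes picked from the 14172, and none is a call. DESeq2 called 16 and limma-voom 0. This comparison of courses therefore gives sizes and errors, not calls, for the genes named here. TNFAIP3 fell by 2.47 with the inhibitor and by 3.34 without it, a difference of 0.88 (SE 0.257, unadjusted p 0.00296). IRF1 fell by 1.71 and 2.6 (difference 0.90, SE 0.199, unadjusted p 0.000246). RND1 fell by 3.26 and 5.04 (difference 1.78, SE 0.409, unadjusted p 0.000366), and CD83 by 1.88 and 3.17 (difference 1.29, SE 0.341, unadjusted p 0.00126). LIF fell by 2.5 and 4.05 (difference 1.55, SE 0.482, unadjusted p 0.00451). CXCL8 fell by 3.75 and 3.66, a difference of -0.08 with an SE of 0.724.

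For TNFAIP3, IRF1 and CD83 the values per library are given at each time, with a test at 24 h only. TNFAIP3 at 2 h was 1454, 1455, 1180 and 941 CPM with flagellin alone, above the 505 to 881 CPM with the inhibitor in every library. At 24 h it was 154, 210, 85.6 and 80.2 CPM with flagellin alone, against 197, 160, 64.9 and 87.6 CPM with the inhibitor. IRF1 at 2 h was 220, 199, 177 and 148 CPM with flagellin alone, again without overlap, and 42.3, 48.3, 21.6 and 18.6 CPM at 24 h. CD83 showed the same arrangement, with 38.3, 29.1, 39.1 and 28.6 CPM at 2 h and 4.63, 5.78, 2.62 and 2.53 CPM at 24 h. Compared directly at 24 h, the log2 differences with the inhibitor were -0.07 (SE 0.182) for TNFAIP3, 0.20 (SE 0.141) for IRF1 and 0.40 (SE 0.247) for CD83, with adjusted p of 0.994, 0.895 and 0.863.

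CBX8, a chromobox protein that binds methylated histone H3 within Polycomb complexes, was read at 9.24, 11.6, 11.1 and 10.8 CPM at 2 h and at 9.51, 9.66, 11.3 and 13.4 CPM at 24 h with the inhibitor (log2 change 0.03, SE 0.158, adjusted p 0.934). With flagellin alone it rose from 4.34, 3.94, 4.09 and 3.40 CPM to 6.61, 5.56, 8.66 and 8.71 CPM (log2 change 0.88, adjusted p 0.00109), and with PBS it rose by 0.60 (adjusted p 0.0122). The difference from the flagellin course was -0.86 (SE 0.226, unadjusted p 0.00124, adjusted p 1). At both times every library with the inhibitor lay above the library of the same number with flagellin alone. Of the 16 PRC1 subunits tested, PCGF2 was the only one past the threshold with the inhibitor, with a rise of 0.46 (adjusted p 0.00601, and 0.0707 without the block). Over all genes 17.1% were called.

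The calls of the 3 courses overlapped in part. Of the 1229 genes that rose with SB203580 plus flagellin, 853 also rose with flagellin alone (69.4% of the former list and 63.1% of the latter) and 846 also rose with PBS (68.8% and 54.1%). Of the 1193 that fell, 770 also fell with flagellin alone (64.5% and 58.7%) and 774 with PBS (64.9% and 47.8%). Passing in both other courses were 702 of the genes that rose and 597 of those that fell, and passing in neither were 232 and 246. Calls in 1 course and not in another do not show a difference between courses, for which the tests above are given. Across the 14172 genes the changes with the inhibitor had a Pearson correlation of 0.78 with those of flagellin alone and 0.68 with those of PBS, where the courses share the replicate sets and no library.

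Genes of glycolysis and of the response to low oxygen rose together between 2 h and 24 h. All 33 members tested had a positive log2 change, 27 passed the threshold, and the list median was 0.90. The same list had 25 members past the threshold with flagellin alone (median 0.87) and 28 with PBS (median 1.01), so the rise was also present where neither flagellin nor the inhibitor had been added. Hypoxia-inducible factor switches on these genes when oxygen is scarce; oxygen was not measured in these files.

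NDRG1 (growth arrest and stress gene) was read at 240, 176, 133 and 198 CPM at 2 h and at 2182, 1141, 1052 and 1460 CPM at 24 h (log2 change 2.97, SE 0.303, adjusted p 7.07e-06). SLC16A3, the exporter of lactate, rose from 3.64, 3.89, 6.38 and 5.97 CPM to 26.1, 19.1, 45.2 and 55 CPM (log2 change 2.84, SE 0.237, adjusted p 8.77e-07). EGLN3, an oxygen-sensing prolyl hydroxylase, rose from 275, 151, 230 and 267 CPM to 1084, 787, 1048 and 912 CPM (log2 change 2.05, SE 0.23, adjusted p 1.67e-05). In none of these 3 genes did a 24 h value come near a 2 h value.

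PDK1, the kinase that keeps pyruvate out of the mitochondria, lay at 30.9 to 44.3 CPM at 2 h and at 75.4 to 114 CPM at 24 h, a rise of 1.39 (SE 0.133, adjusted p 3.11e-06). LDHA, which turns pyruvate into lactate, rose from 679, 602, 867 and 915 CPM to 1366, 1187, 1735 and 1585 CPM (log2 change 0.95, SE 0.0996, adjusted p 9.79e-06). These 5 genes were past the threshold under all 19 alternatives. The 6 members that did not pass were ANKRD37, ADM, CA9, PFKFB4, PFKM and PFKFB3, named because they are the whole remainder, with log2 changes of 1.04, 0.69, 0.33, 0.27, 0.11 and 0.06. CA9, a carbonic anhydrase used as a marker of hypoxia, was read at 20.3, 18.1, 21.0 and 16.3 CPM at 2 h and at 42.5, 24.4, 17.5 and 15.2 CPM at 24 h, higher in replicates 1 and 2 and lower in replicates 3 and 4.

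**Figure D4:**
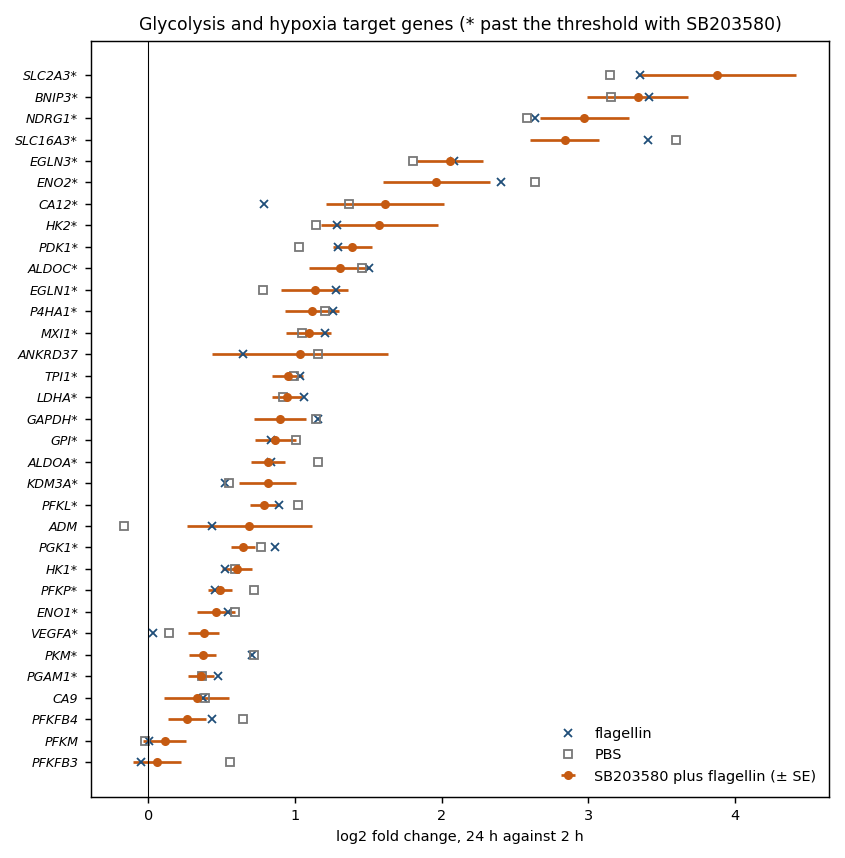
Log2 fold change between 2 h and 24 h of the 33 glycolysis and hypoxia target genes tested, with SB203580 plus flagellin (orange, with its standard error), flagellin alone (blue crosses) and PBS (grey squares); an asterisk marks the 27 past the threshold with SB203580. All 33 orange points lie to the right of 0, and the other courses follow them closely for most genes.

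Other genes were among the 12 largest rises named by rule. STC1 (ENSSSCG00000009642, chromosome 14, 7948655 to 7961629), which encodes the secreted hormone stanniocalcin, rose from 0.858, 0.564, 0.197 and 1.24 CPM to 22.0, 10.5, 13.0 and 24.4 CPM (log2 change 4.65, SE 0.516, adjusted p 1.59e-05), the largest rise by that rule. Its change was 3.36 with flagellin alone and 3.29 with PBS. ERO1A, an oxidase of protein folding, rose by 2.43 (SE 0.189, adjusted p 4.66e-07), and SLC2A5, the fructose transporter, by 3.50 (SE 0.575, adjusted p 0.000493). NDUFA4L2, a mitochondrial protein, rose by 2.36 (adjusted p 0.0106), where replicate 1 at 2 h, with 76.2 CPM, lay above the 16.8 to 23.3 CPM of the others. KIT, a receptor tyrosine kinase, rose from 14.0, 20.7, 1.18 and 1.27 CPM to 91.4, 41.5, 38.3 and 43.5 CPM (log2 change 3.0, adjusted p 0.00239, and 0.0702 without the block). In the PBS course KIT rose by 4.13.

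Among the largest falls named by rule were DIO2, the deiodinase that activates thyroid hormone, by 3.05 (SE 0.381, adjusted p 5.15e-05), and PREX2, an activator of the GTPase Rac, by 2.22 (SE 0.323, adjusted p 0.000194). With PBS the falls were 3.89 and 2.18.

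Genes of lipid synthesis fell by small amounts in many members. Of 31 cholesterol and fatty acid synthesis genes, 13 fell and none rose, and the list median was -0.37 with a median of -0.43, -0.44, -0.42 and -0.40 in the 4 replicate pairs. HSD17B7 and EBP, enzymes of the later steps of cholesterol synthesis, fell by 0.91 and 0.87 (SE 0.138 and 0.115, adjusted p 0.000284 and 7.27e-05). EBP went from 41.6, 37.9, 27.0 and 31.3 CPM to 26.8, 20.7, 14.1 and 14.6 CPM, with the lowest 2 h value just above the highest 24 h value. IDI1, of the isoprenoid steps, fell by 1.19 (adjusted p 0.00122, and 0.0972 without the block), and LSS, which closes the sterol rings, by 0.58 (adjusted p 0.00122, and 0.0522 without the block). Without the replicate block 5 members of the list fell. With PBS 13 fell and 1 rose (median -0.32), and with flagellin alone 8 fell and 1 rose (median -0.17).

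Ribosome biogenesis genes showed 10 of 26 members lower and none higher (median -0.26). NOP56 and FBL, core proteins of the particles that methylate ribosomal RNA, fell by 0.56 and 0.52 (adjusted p 0.00764 and 0.0033). NOLC1 and NOP14, both of the nucleolus, fell by 0.52 and 0.63 (adjusted p 0.00766 and 0.00694). The block mattered for FBL and NOP14, whose adjusted p without it was 0.186 and 0.07, and the list count without it was 3. With PBS 12 members fell and with flagellin alone 10.

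Part of the protein-folding genes fell. Of 21 endoplasmic reticulum chaperones and unfolded protein response genes, 8 fell and 1 rose (median -0.11). DNAJB11, a co-chaperone of that compartment, fell from 63.2, 68.6, 81.9 and 77.3 CPM to 41.2, 45.5, 50.4 and 51.4 CPM (log2 change -0.63, SE 0.0664, adjusted p 9.98e-06). CALR, the chaperone calreticulin, fell by 0.48 and MANF by 0.45 (adjusted p 0.00158 and 0.000419, and 0.122 for MANF without the block). EDEM1, which directs misfolded proteins to degradation, rose by 0.50 (SE 0.0896, adjusted p 0.00104). Of 17 heat shock proteins 4 fell and none rose, where 8.42% of all genes tested fell and 8.67% rose. HSPA8, the constitutive HSP70, fell from 1486, 1278, 1505 and 1574 CPM to 929, 908, 886 and 867 CPM (log2 change -0.70, adjusted p 0.00192). HSPA8 fell by 0.87 with PBS. Reads of HSPA8 may be shared with processed copies of the gene.

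In the list of 24 ATF4 stress and amino acid synthesis genes, 5 rose and 3 fell. STC2, a second stanniocalcin, rose from 5.42, 5.11, 4.69 and 6.95 CPM to 25.3, 19.1, 22.3 and 29.1 CPM (log2 change 2.11, SE 0.182, adjusted p 1.12e-06). NUPR1, a stress-induced nuclear protein, fell by 1.60 (adjusted p 0.000347), from 661, 655, 119 and 99.2 CPM to 266, 113, 41.7 and 45.3 CPM. It was far higher in replicates 1 and 2 than in replicates 3 and 4 at 2 h, and without the block its adjusted p was 0.32. GDF15, a stress cytokine and p53 target, fell by 1.5 (SE 0.217, adjusted p 0.000175). It led the 4 falling members among 24 cyclins, CDK inhibitors and p53 target genes, of which 1 rose. Over all genes tested 17.1% were called.

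Ion and water transport genes, which set the depth of the airway surface liquid, fell in 7 of 19 cases and rose in none (median -0.24). AQP3 (ENSSSCG00000040513, chromosome 10, 33045247 to 33053995), the water and glycerol channel of basal cells, fell from 1557, 1472, 2095 and 1392 CPM to 317, 456, 564 and 626 CPM (log2 change -1.76, SE 0.188, adjusted p 1.08e-05). No 24 h library came near a 2 h library. AQP3 fell by 0.91 with flagellin alone and by 1.35 with PBS, and the difference from the flagellin course was -0.86 (SE 0.259, unadjusted p 0.00376, adjusted p 1).

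SLC12A2, the basolateral entry route for chloride, fell from 403, 296, 314 and 255 CPM to 223, 210, 144 and 137 CPM (log2 change -0.83, SE 0.18, adjusted p 0.004). ANO1, a calcium-activated chloride channel, fell from 184, 151, 233 and 221 CPM to 122, 106, 118 and 132 CPM (log2 change -0.71, SE 0.108, adjusted p 0.000288). CFTR, the chloride channel mutated in cystic fibrosis, was at 49.7, 111, 92.6 and 95.4 CPM at 2 h and at 51.4, 48.9, 54.3 and 54.3 CPM at 24 h. Its log2 change was -0.76 (adjusted p 0.0358), replicate 1 did not fall, and the call was lost on leaving out any library but replicate 1 at 2 h (adjusted p up to 0.16) and without the block (0.0702). The list had 9 members lower and 1 higher with PBS, and 7 lower with flagellin alone. In bulk RNA, fewer cells of a type and less RNA per cell cannot be told apart, which applies to these channels and to the marker genes below.

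Circadian clock genes rose in 5 of 20 cases and fell in 1, where 8.67% of all genes tested rose and 8.42% fell. DBP, a clock output gene, rose by 1.11 (adjusted p 0.00231, and 0.0935 without the block). CRY1, a repressor of the clock, fell from 26.7, 29.5, 27.8 and 27.5 CPM to 18.9, 20.0, 14.7 and 11.9 CPM (log2 change -0.79, SE 0.143, adjusted p 0.00119). PER1 did not pass (log2 change -0.06, adjusted p 0.852). In the PBS course the changes of DBP and CRY1 were 1.49 and -0.80. The clock time at harvest is not given in the labels.

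Over the cell type marker lists other than the mucins and goblet cell genes, which are given below, 1 of 11 secretory, 1 of 23 ciliated, 4 of 17 basal, 1 of 20 squamous, 2 of 5 ionocyte and neuroendocrine, 2 of 8 immune, 3 of 13 fibroblast and 2 of 6 endothelial markers passed. This puts the lists on both sides of the 17.1% of all genes. Of 11 secretory cell markers, 1 fell, CP (ceruloplasmin), by 1.27 (adjusted p 0.00746, and 0.135 without the block). Of 23 ciliated cell markers, RFX2, a regulator of cilia genes, fell by 0.78 (adjusted p 0.0126). Its adjusted p was 0.0563 without replicate 1 at 2 h, 0.0518 without the block and 0.198 without the 3 libraries set aside. Basal cell markers had 3 of 17 lower, of which AQP3 was 1, and PDPN (podoplanin) fell by 0.75 (adjusted p 0.00317, and 0.27 without the block). EGFR, a growth factor receptor, rose by 0.36 (adjusted p 0.011, 0.583 without the block and 0.113 without the 3 libraries set aside).

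Over the 20 squamous and cornified envelope genes the mean log2 CPM was 8.14, 6.56, 5.36 and 5.77 at 2 h and 8.25, 7.01, 5.71 and 4.98 at 24 h. Involucrin (IVL), a precursor of the cornified envelope, was the only one past the threshold. It rose from 109, 43.9, 28.0 and 45.6 CPM to 855, 258, 152 and 104 CPM (log2 change 2.32, SE 0.529, adjusted p 0.00584). In the PBS course IVL had a log2 change of 0.61 (adjusted p 0.406), and the difference between the courses did not pass the threshold. Replicate 1 at 24 h was the highest library of the 8, and it was also the one with the highest mean level of the squamous list. Whether the makeup of that library has a part in the rise of IVL was not tested.

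Of 8 immune cell markers tested, CD68, a lysosomal protein of macrophages that other cells also make, rose from 13.1, 6.15, 7.02 and 6.46 CPM to 26.2, 24.9, 26.3 and 28.4 CPM (log2 change 1.70, SE 0.252, adjusted p 0.000224), while PTPRC, CD3E and MS4A1 were at or near 0 as given above. Its change in the PBS course was 1.4. CSF1R, the receptor of macrophage growth factor, passed in the other direction (log2 change -2.22, adjusted p 0.0438). It was below 1.6 CPM throughout, with no count at 2 h in replicates 3 and 4. Its call was lost without the block (0.494) and without replicate 2 or 3 at 2 h or 1 or 2 at 24 h (up to 0.305), and without the 3 libraries set aside its log2 change was 0.49 (adjusted p 0.826). Among 39 cell cycle and proliferation genes, CCNE1, a cyclin of S phase entry, rose by 0.39 (adjusted p 0.0304) and RRM1, which supplies deoxynucleotides, fell by 0.57 (adjusted p 0.00644). Without the block these adjusted p were 0.117 and 0.11, and without the 3 libraries set aside 0.0735 and 0.22. The other 37 genes did not pass, where 17.1% of all genes tested were called. Of 12 mucins and goblet cell genes tested, 1 rose and 1 fell, against 17.1% called over all genes. MUC13 fell by 1.13 (adjusted p 0.0018, and 0.143 without the block), and GALNT12 rose by 0.46 (adjusted p 0.00752, and 0.0373 without the block). MUC5AC, the inducible goblet cell mucin, went from 1252, 1338, 494 and 514 CPM to 846, 607, 258 and 368 CPM, lower in each replicate. Its log2 change of -0.80 did not pass (adjusted p 0.126). The antimicrobial protein LCN2 and the acute-phase protein SAA3 had log2 changes of -0.25 and -0.22 (adjusted p 0.751 and 0.826). Of 18 antimicrobial and acute-phase proteins 1 rose and 1 fell, against 17.1% called over all genes. The 1 that rose was S100A12, by 0.89 (adjusted p 0.00924), a call lost without the block (0.314) and without the 3 libraries set aside (0.209).

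Several genes moved unevenly between replicates 1 and 2 and replicates 3 and 4. Over all genes tested, the change from 2 h to 24 h had a correlation of 0.41 between replicates 1 and 2 and of 0.65 between replicates 3 and 4, and of 0.16 to 0.24 between a replicate of the first set and one of the second. CYP1A1, the main target gene of the aryl hydrocarbon receptor, was read at 54.9, 53.9, 291 and 191 CPM at 2 h and at 170, 68.8, 21.5 and 14.4 CPM at 24 h. It was higher at 24 h in replicates 1 and 2 and lower in replicates 3 and 4, and the log2 change was -1.03 (SE 0.96, adjusted p 0.50).

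In the other courses CYP1A1 fell in all 4 replicates, by 2.91 with flagellin alone (adjusted p 0.0461) and by 4.74 with PBS (adjusted p 0.00409). At 24 h it was at 2.67 to 10.3 CPM with flagellin alone and at 2.29 to 10.5 CPM with PBS, below each of the 14.4 to 170 CPM with the inhibitor. The difference from the PBS course was 3.71 (SE 1.28, adjusted p 0.948), and the 24 h difference from flagellin alone was 3.45 (SE 0.978, adjusted p 0.336), so neither passed. CYP1B1, a second target of this receptor, fell from 290, 252, 830 and 658 CPM to 239, 165, 92.3 and 77.0 CPM (log2 change -1.69, SE 0.555, adjusted p 0.0431). The call on CYP1B1 was lost when replicate 3 or 4 at 2 h, or 2, 3 or 4 at 24 h, was left out (up to 0.139). At 24 h CYP1B1 lay at 25.8 to 45.2 CPM with flagellin alone and at 19.7 to 35.1 CPM with PBS, again below all 4 libraries with the inhibitor.

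PTGS2, which encodes cyclooxygenase 2, an enzyme whose messenger RNA is a known target of p38, went from 21.1, 34.2, 86.7 and 102 CPM to 123, 46.9, 51.8 and 65.7 CPM. It was higher at 24 h in replicates 1 and 2 and lower in replicates 3 and 4 (log2 change 0.46, SE 0.564, adjusted p 0.629). In replicates 3 and 4 alone the log2 change was -0.70 (adjusted p 0.0221). With flagellin alone PTGS2 was at 82.5, 92.8, 325 and 299 CPM at 2 h, above the library of the same number with the inhibitor in all 4 replicates. CCN3, a secreted matricellular protein, rose from 11.7, 10.8, 33.2 and 43.6 CPM to 40.5, 22.8, 501 and 323 CPM (log2 change 2.51, SE 0.358, adjusted p 0.00017, and 0.0742 without the block). Its change with PBS was 3.04.

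EPHB2, a receptor tyrosine kinase for ephrins, was read at 2.95, 15.5, 37.6 and 47.4 CPM at 2 h and at 1.15, 1.23, 16 and 20.1 CPM at 24 h (log2 change -2.04, SE 0.539, adjusted p 0.0145). Its change was -0.20 with flagellin alone and -0.03 with PBS, and the difference from neither course passed the threshold. The call was lost without the block (adjusted p 0.585), without replicate 2 at 2 h (0.0586) and without the 3 libraries set aside (0.0688).

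**Figure D5:**
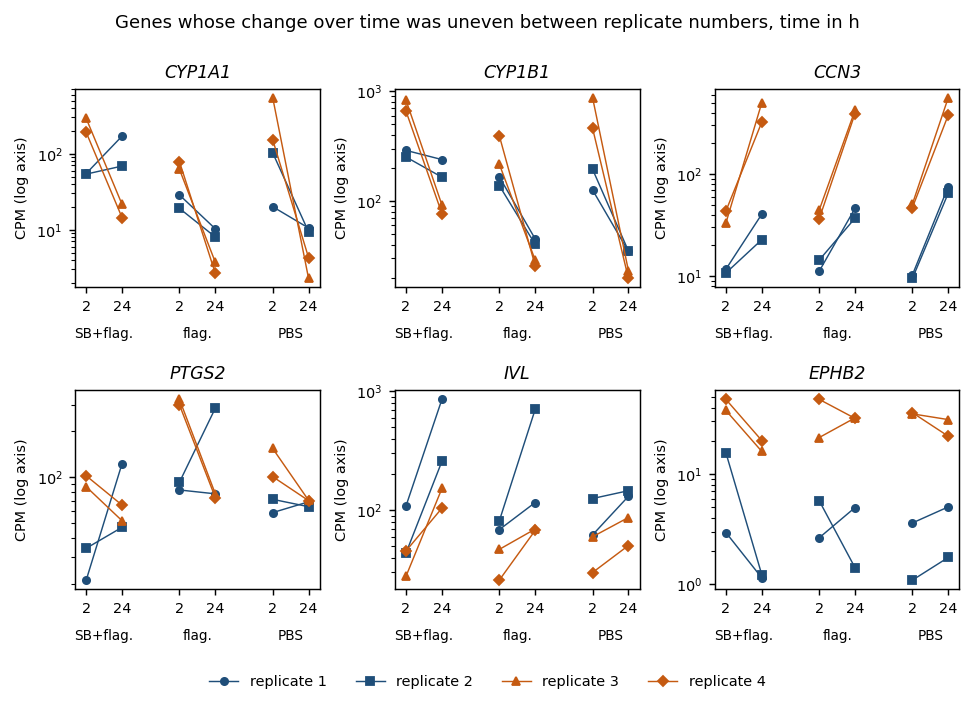
CPM on a log axis of 6 genes in every library at 2 h and 24 h with SB203580 plus flagellin, flagellin alone and PBS, with replicates 1 and 2 in blue and 3 and 4 in orange; the 6 genes were picked for display after their values had been seen. With SB203580 plus flagellin the blue and orange lines of CYP1A1 and PTGS2 go in opposite directions, while CCN3 rises in both sets from different levels.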

How the data were processed

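Counts per gene of 24 paired-end RNA-seq libraries were deposited by the authors as 1 table of whole-number counts. Per the submitters' processing notes, STAR 2.4.0a, featureCounts and Subread 1.4.6-p1 were used, and a build named GRCm38 is listed, although the identifiers are those of pig. Which pig assembly was used, and whether counting used strand, is not given in the sources used here. Overlapping genes, antisense genes and near-identical copies may therefore share reads. Coordinates are those of the deposited table.

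Of 31868 features, 25880 pig genes were kept. The 5888 bacterial and 100 spike-in features entered neither library sizes nor tests. Symbols were taken by identifier for 14857 genes and by position against RefSeq genes (Sscrofa11.1, reciprocal overlap of at least 0.5) for 1619, CCL20, TNF, SAA3, MUC5AC, SLC2A3 and BNIP3 among them. For genes with both, 94.7% of 12609 symbols were the same.

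Counts were filtered by filterByExpr, scaled by TMM and fitted with edgeR 4.0.16 (R 4.3.3; robust quasi-likelihood, glmQLFTest) over all 24 libraries, with 1 term per group and the replicate number as a block (15 residual degrees of freedom). P-values were adjusted by Benjamini-Hochberg over 14172 genes. SE is the log2 change over the square root of F. CPM of tested genes use TMM-scaled library sizes, and marker checks and floors use library totals. Floors cover counting error only.

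The libraries were matched by number because the comparison is defined so. As a check of the pairing, deviations from the group means correlated across genes between same-numbered libraries at 0.69, 0.35, 0.62 and 0.63 for replicates 1 to 4. Differently numbered libraries of the same set (1 with 2, 3 with 4) correlated at 0.32 to 0.60, and those of different sets at -0.69 to -0.32. The check thus separates the 2 sets, and does not tell the numbers apart within a set. No 2 replicates agreed within counting noise.

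Members and gene lists were chosen with earlier results of these data known. Genes are named by rule: the 12 largest rises and falls among called genes with at least 5 CPM in the higher group and 1 direction in all 4 pairs, up to 4 called members per list by p, a fixed list of early and pathway genes, and every gene called in a difference of courses when there are at most 10. Other names are stated as chosen after their values were seen. Alternatives were no block, a further term for the replicate set, only the libraries compared, RLE scaling, other filters, DESeq2 1.42.0, limma-voom (limma 3.58.1), each replicate set alone and each library left out. The analysis without the SB203580 libraries of replicate 1 at both times and replicate 2 at 24 h was chosen after seeing the data. The script was tested on simulated data.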

Additional observations from a re-analysis of the deposited data

Results flagged for a closer look

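In 14 of 262 groups of 4 libraries examined, 1 library lay far from the other 3, and chance alone marks about 1 group in 20. At 2 h with SB203580 plus flagellin, replicate 1 was high for SLC2A5 (1.24 CPM against 0.225 to 0.231), NDUFA4L2 (76.2 against 16.8 to 23.3), CD68 (13.1 against 6.15 to 7.02) and CCND3, a cyclin (302 against 253 to 257), and low for AUH (10.7 against 12.3 in the others). Replicate 2 at 2 h was high for CSF3 (1.16 against 0.112 to 0.172), and replicate 4 at 2 h was high for MYH11, a smooth muscle myosin (0.692 against 0.339 to 0.393). At 24 h, replicate 1 was high for KIT (91.4 against 38.3 to 43.5), ACP7, an acid phosphatase (21.0 against 2.02 to 3.62), CSF1R (0.323 against 0.0269 to 0.0646) and PLA2G4A, a phospholipase (32.0 against 27.7 to 28.4). Replicate 2 at 24 h was low for ERO1A (239 against 376 to 404) and high for DIO2 (3.94 against 0.943 to 1.36) and IL6 (0.452 against 0.108 to 0.112). Of the 14, 12 fall in the 3 libraries set aside above for their marker levels (replicate 1 at both times and replicate 2 at 24 h), and the part of the makeup of these libraries was not tested.

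The change over time differed from the PBS course in 8 genes by the test of the difference itself: TNFAIP3 (-1.83 on the log2 scale), NFKBID (-2.16), IRF1 (-1.99), BIRC3 (-0.93), TXNIP (-0.77), NFKBIE (-1.18), RND1 (-2.63) and ENSSSCG00000008954 (-3.16).

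Features of bacterial genomes in the same table, which no comparison uses, took 17.5 CPM in replicate 2 at 24 h with SB203580 plus flagellin, above the 6.09 to 10.1 CPM of the 4 PBS libraries at 24 h. Other libraries of the series were higher: PBS at 2 h reached 51.4 CPM and flagellin at 2 h reached 49.5 CPM.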

How the results depend on the processing

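The count of changed genes (2422) moved with the design more than with the scaling or tool. Without the replicate block it was 975 (525 higher, 450 lower), with a further term for the replicate set at 24 h 3827 (1911 and 1916), and with only the libraries compared 577 (294 and 283). Replicates 1 and 2 alone gave 1242 (678 and 564), replicates 3 and 4 alone 3767 (1821 and 1946), and the analysis without the 3 libraries set aside 1551 (751 and 800). With 1 library left out the count was 1716 to 2120, with 882 to 1078 genes higher and 834 to 1062 lower. RLE scaling, other filters, DESeq2 and limma-voom gave 2111 to 2937. The cause of these shifts was not tested.

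The difference from flagellin alone had 0 genes in each edgeR and limma-voom analysis run and 0 to 0 with 1 library left out, against 16 in DESeq2. The difference from PBS had 8, with 0 without the replicate block, 0 in replicates 1 and 2 alone, 32 in replicates 3 and 4 alone, 17 with the term for the replicate set, 35 in DESeq2, 3 without the libraries set aside and replicate 2 with PBS at 2 h, and 3 to 14 with 1 library left out. All 8 were among the 17 and the 35. Of the values of named genes under alternatives, 2274 kept their direction and side of the threshold, sign changes of values called in neither analysis included, 391 lost their call and 4 gained one. There were 2 that turned direction. The log2 change of CSF1R went to 0.49 without the 3 libraries set aside, and PTGS2 to -0.70 in replicates 3 and 4 alone. Low counts limit CSF1R, IL6, CSF3, IL20 and TLR5, and the 4 libraries per group, in 2 sets, limit the rest.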

Other observations

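Among 26 NRF2 and oxidant defence genes, 3 fell and 1 rose, against 17.1% called over all genes. OSGIN1 fell by 1.00 on the log2 scale, SOD2, the mitochondrial superoxide dismutase, by 0.63 and GCLM, of glutathione synthesis, by 0.29 (edgeR adjusted p 0.00288, 0.0118 and 0.0204). GSR, glutathione reductase, rose by 0.39 (adjusted p 0.0167). The SOD2 call was lost without replicate 3 at 24 h, and those of GCLM and GSR when any of several libraries was left out (up to 0.0773 and 0.065) and without the replicate block (0.437 and 0.39). The calls of GCLM and GSR were also lost without the 3 libraries set aside (0.0745 and 0.264).

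Of 15 DUOX and prostaglandin genes, 2 rose and 1 fell, against 17.1% called over all genes. PLA2G4A, which frees arachidonic acid, rose by 0.65 (adjusted p 0.000849), from 16.8 to 19.9 CPM at 2 h to 27.7 to 32.0 CPM at 24 h, and it did so in all 4 replicates. PTGES, a prostaglandin E synthase, rose by 0.41 (adjusted p 0.0207), and PTGES2, another synthase, fell by 0.35 (adjusted p 0.0184). Both calls were lost without the block (0.209 and 0.359) and on leaving out any of several single libraries (up to 0.0879 and 0.0765). Of 28 matrix and protease genes, again against 17.1% called over all genes, 2 rose and 1 fell. The latter was COL7A1, a collagen gene whose symbol was matched by position and which is named after its values were seen, and it fell by 0.46 (adjusted p 0.0485). TIMP3, an inhibitor of metalloproteinases, rose by 0.61 (adjusted p 0.00994, and 0.583 without the block), and MMP9, a gelatinase, rose from 5.49, 3.81, 0.927 and 1.76 CPM to 26.8, 9.46, 3.74 and 3.26 CPM (log2 change 1.66, adjusted p 0.0218, and 0.293 without the block). The MMP9 call was also lost without replicate 1, 2 or 3 at 2 h or replicate 1 at 24 h (up to 0.0935). Without the 3 libraries set aside the calls of TIMP3 and MMP9 were lost (adjusted p 0.0956 and 0.0842).

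Of 6 markers listed as endothelial, KDR and PECAM1 rose by 0.95 and 0.81 (adjusted p 0.016 and 0.0108), and by 1.12 and 0.62 with PBS. The KDR call was lost without the block (0.0804) and without replicate 1 or 3 at 2 h or 3 or 4 at 24 h (up to 0.0817), and its log2 change was 0.37 in replicates 1 and 2 alone and 1.41 in 3 and 4 alone. The PECAM1 call was lost without the 3 libraries set aside (0.0728). CDH5, which defines endothelium, was at or near 0 in all 8 libraries.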
